A study of Caenorhabditis elegans with 2 samples.

Results

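The 527 regions described here were intronic entries, far from the starts of protein-coding genes, in a list of peaks and background from chromatin immunoprecipitation of tagged CEH-14 in C. elegans embryos. They were taken from the authors' pooled list of 21766 peak and background entries, ranked by the authors' signal value. A region was a member when its rank lay between 1 and 5000 and its summit lay on an autosome, inside an intron of a protein-coding transcript and in no annotated exon. The summit also had to lie over 1000 bases from every protein-coding transcript start and over 200 bases from every tRNA, snoRNA and snRNA gene. The 527 members made up 10.5% of the 5000 entries and 13.0% of the 4050 autosomal ones among them. Signal, rank and position chose the members, so these values are given as a description only.

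The samples were whole hermaphrodite embryos of strain OP315, labelled as late embryonic and collected 5 hours after synchronization by egg bleaching. The animals carried CEH-14 fused at its C-terminus to a GFP-FLAG tag in a stable transgenic line, and sonicated chromatin was precipitated with an anti-GFP antibody, although 1 label field names ceh-14 as the antibody. There were 2 biological replicates in 1 group, so that no comparison between conditions existed, and no control library was analysed here. All animals were of 1 line, and the labels do not say in which cells the fusion was made. Because whole animals were used, strong recovery in few cells and weak recovery in many cells cannot be told apart.

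CEH-14 is a LIM homeodomain protein, related to vertebrate Lhx3 and Lhx4, and is known in C. elegans for its part in the identity of the AFD thermosensory neurons and of the ALA and BDU neurons. Homeodomains of this family bind short sites with a TAAT core, of which the palindrome TAATTA is a usual form. Introns, long first introns among them, are known in C. elegans to hold enhancers that act on the gene around them. Runs of alternating G and A are common in C. elegans regulatory regions and are bound there by several zinc-finger and other proteins.

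The sequences below are the 101 bases centred on the summit, called the centre here, of members on which the results turn. They are shown on the plus strand of ce11, the same sequence as WBcel235, from the RefSeq copy of that assembly. Capitals mark TAATTA, read here as the LIM homeodomain core, and the GA repeat GAGAGA or its reverse complement TCTCTC. The first 8 were the strongest members on chromosomes II to V with a LIM core in the centre, apart from cct-5 and noca-1, which are left out for space.
R05C11.4, chrIV:2052537-2052637: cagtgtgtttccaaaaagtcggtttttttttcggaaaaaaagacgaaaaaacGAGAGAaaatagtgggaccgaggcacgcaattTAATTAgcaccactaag
Y56A3A.7, chrIII:11935235-11935335: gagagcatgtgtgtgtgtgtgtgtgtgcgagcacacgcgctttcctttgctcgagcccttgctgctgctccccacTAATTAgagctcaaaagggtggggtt
unc-79, chrIII:4070415-4070515: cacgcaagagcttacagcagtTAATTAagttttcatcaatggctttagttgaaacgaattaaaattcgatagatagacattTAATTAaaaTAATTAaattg
ptp-3, chrII:10990709-10990809: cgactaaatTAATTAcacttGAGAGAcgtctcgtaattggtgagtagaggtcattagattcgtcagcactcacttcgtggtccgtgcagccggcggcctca
cam-1, chrII:9306920-9307020: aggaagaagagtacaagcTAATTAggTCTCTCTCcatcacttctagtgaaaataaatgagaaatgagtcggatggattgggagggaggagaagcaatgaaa
unc-43, chrIV:10347713-10347813: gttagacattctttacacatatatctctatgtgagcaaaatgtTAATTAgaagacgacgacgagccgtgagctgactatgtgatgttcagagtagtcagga
cmk-1, chrIV:1826773-1826873: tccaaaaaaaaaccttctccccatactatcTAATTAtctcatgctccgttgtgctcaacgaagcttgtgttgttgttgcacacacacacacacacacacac
C14B4.2, chrV:19356894-19356994: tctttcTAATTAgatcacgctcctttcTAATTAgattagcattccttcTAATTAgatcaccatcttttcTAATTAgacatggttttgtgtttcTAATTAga
The core was not at a fixed place in them. It lay close to the summit, which is the middle base, in unc-43, and near an edge of the window in ptp-3. The unc-79 centre held 3 copies and the C14B4.2 centre held 5, each of these 5 within CTAATTAG in a longer unit repeated in tandem. The next 5 centres are those of the strongest members on the same chromosomes with a GA repeat and no LIM core.
pqn-41, chrIII:1921397-1921497: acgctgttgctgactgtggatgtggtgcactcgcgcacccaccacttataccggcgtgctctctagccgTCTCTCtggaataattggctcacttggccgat
larp-1, chrIII:5014080-5014180: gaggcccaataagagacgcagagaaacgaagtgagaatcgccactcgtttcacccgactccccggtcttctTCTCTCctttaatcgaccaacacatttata
mpk-1, chrIII:4223769-4223869: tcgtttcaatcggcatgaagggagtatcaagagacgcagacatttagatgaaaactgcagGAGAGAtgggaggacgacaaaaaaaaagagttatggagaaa
K01F9.2, chrIII:8874295-8874395: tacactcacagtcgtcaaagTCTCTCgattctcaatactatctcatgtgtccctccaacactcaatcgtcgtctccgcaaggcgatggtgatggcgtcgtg
pkc-1, chrV:12025599-12025699: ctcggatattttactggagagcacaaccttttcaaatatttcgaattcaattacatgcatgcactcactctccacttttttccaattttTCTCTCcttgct
In mpk-1 another short purine run stood close to the capitals, and in larp-1 short purine runs stood toward the start of the window, away from them. The pqn-41 centre was rich in G and C, at 56.4%.

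The signal of the members ran between 43.4 and 233 in the authors' units, with a median of 54.5. Of the 527, 132 were IDR peaks, the subset that the authors kept for agreement between replicates, a share with a 95% Wilson interval of 21.5% to 28.9%, beside 33.3% of all autosomal entries of rank 1 to 5000. A member was counted as an IDR peak when its pooled rank was 1681 or better, the number of IDR peaks, so this split follows signal. The IDR members had a median signal of 95.2 and a lowest of 73.0, and the 395 others a median of 50.6. Most entries, 521, were 456 bases wide, and 5 were narrower than 200 bases. At the edge of the rank limit, entries in ZK430.5 (rank 4993, signal 43.41) and osm-12 (rank 4997, 43.40) were inside, and entries in ercc-1 (rank 5003, 43.38) and R119.5 (rank 5007, 43.36) were outside. At the edge of the start distance, summits in aqp-2 and Y62E10A.13 lay 1003 and 1014 bases from a coding start and were inside, and summits in C01G12.7 and pac-1 lay 994 and 990 bases away and were outside. The closest members to a small RNA gene, in efn-4 and ZK858.2, lay 523 and 626 bases from it, and the entries just outside that limit, in pes-4 and kin-1, lay 180 and 96 bases from it. That limit alone left out 27 entries, and 3086 pooled entries of any rank met the positional conditions.

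Members were spread thinly. They fell at 33.0 per megabase of the 16.0 megabases of autosomal sequence that met the positional conditions, called open sequence here, against 63.2 per megabase within 1000 bases of a protein-coding start, 43.8 in intergenic sequence far from starts and 23.4 in exons far from starts. The IDR peaks fell at 8.26 per megabase in this intronic sequence, against 23.4 near starts, 12.4 in intergenic sequence and 3.48 in exons. These densities follow from the rule and were not tested against each other. By chromosome the density was 41.8 per open megabase on II, 37.1 on III, 30.6 on IV, 29.6 on I and 27.4 on V. The middle one of 3 equal parts of each chromosome held 162 members (30.7%), beside 24.1% of open sequence.

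Within their genes the members lay in long introns and in first introns more often than the open sequence did. First introns held 196 members (37.2%, interval 33.2 to 41.4), beside 16.8% of open sequence, and 56 of the 132 IDR members (42.4%). Introns of 2000 bases or more held 368 members (69.8%, interval 65.8 to 73.6), beside 34.9% of open sequence. The median intron that held a member was 4090 bases long, the shortest 46 and the longest 21230. Of the members, 143 (27.1%) lay within 200 bases of an exon, beside 48.3% of open sequence. Within 1000 bases of an exon lay 327 (62.0%), beside 85.0% of open sequence, and the other 200 (38.0%) lay farther from any exon. The nearest protein-coding start belonged to the host gene in 445 members (84.4%). The rule places each summit inside its host, which favours this, and the same share of open sequence was not worked out. Over all 527, the nearest protein-coding start of any gene lay at a median distance of 2197 bases and a highest of 14270. These shares are descriptions of where the summits lay, with intervals that cover counting error only, and no placement test was made.

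**Figure D1:**
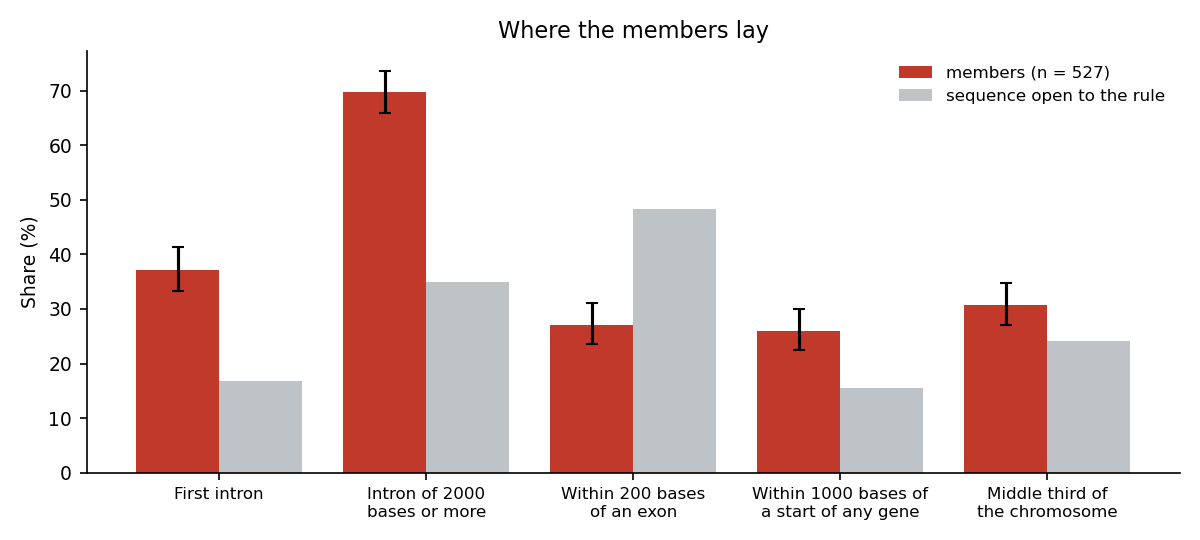
Share in percent of the 527 members (red, with 95% Wilson intervals) and of the open sequence (grey) in 5 kinds of position. First introns held 37.2% of members beside 16.8% of open sequence, and sequence within 200 bases of an exon held 27.1% beside 48.3%.

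The distance condition used protein-coding transcripts alone, and 137 members (26.0%) lay within 1000 bases of the start of some other annotated transcript, beside 15.6% of open sequence. The nearest such start was that of an unclassified non-coding RNA gene in 89 members, a piRNA gene in 20 and a miRNA gene in 6. It was that of a snoRNA gene in 6, a pseudogene in 6 and a gene of another kind in the rest. The strongest of these, the hmt-1 member (rank 98), lay 857 bases from the start of sls-2.15, annotated as an snRNA gene. The Y105C5A.1 member (rank 181) lay 166 bases from a piRNA start, and the K01F9.2 member (rank 416), printed above, lay 261 bases from the start of mir-90. Whether these members belong to the gene of that start or to the host gene was not tested.

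The strongest members lay in genes of varied kinds. The entry of highest signal, 232.9 at rank 98, lay in intron 11 of hmt-1, an ABC transporter of heavy metal tolerance. It was only 156 bases wide and so was not matched at the overlap used here, although it touched entries of rank 180 in replicate 1 and 61 in replicate 2. The next, at rank 136 with a signal of 210.8, lay in intron 2 of srt-52, a chemoreceptor gene of the srt family, and touched entries of rank 233 and 104. The member at rank 169 lay in pqn-41, a gene for a protein rich in glutamine and asparagine that acts in the death of the linker cell, and touched entries of rank 282 and 102. All 3 were narrow, and each touched entries of rank 282 or better in both replicate lists.

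Of the members of full width, W05H12.1 ranked 178, with a signal of 88.22 in replicate 1 and 99.56 in replicate 2. The Y111B2A.12 member ranked 216, with 74.73 and 98.42. The larp-1 member, in a gene for a La-related RNA-binding protein, ranked 218, with 74.91 and 102.6. Each list has its own scale, so that these values give places within a list and not amounts to compare between replicates. The mpk-1 member, in the first intron of the ERK MAP kinase gene and 4072 bases from any exon, ranked 251, with 67.45 and 99.32. In ppfr-1, a regulatory subunit gene of protein phosphatase PP4, the strongest member ranked 264, with 94.81 and 75.43. Further down, members lay in zfp-1 (rank 420), the AF10-related chromatin gene, in aakg-1 (rank 410), a gamma subunit gene of AMP-activated kinase, and in ckk-1 (rank 516), the calmodulin kinase kinase gene. All 3 lay in introns longer than the median of 4090 bases.

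Most members were found again in each replicate list, which is a description since the pooled list was made from both. An entry overlapping a member by at least 50% in both directions was present in replicate 1 for 498 members (94.5%), in replicate 2 for 501 (95.1%) and in both for 477 (90.5%, interval 87.7 to 92.7). Among IDR members 128 of 132 (97.0%) were met in both. Fewer reached rank 1 to 5000 in each replicate: 253 (48.0%) did so in both and 38 (7.21%) in neither. The same share was 56.9% for entries near starts, 54.4% for intergenic entries and 42.0% for exonic ones, and these differences were not tested. Across the 477 members met in both, the replicate signals had a Spearman rho of 0.440, which rests in part on the pooled ranking that chose them. It was 0.357 in the 128 IDR members and −0.0921 in the 349 others. Both groups were cut by pooled rank, which limits how the replicate signals can vary together within each. These 2 values therefore do not measure agreement between the replicates. Neighbouring members can match 1 replicate entry, as 46 did in replicate 1 and 56 in replicate 2.

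**Figure D2:**
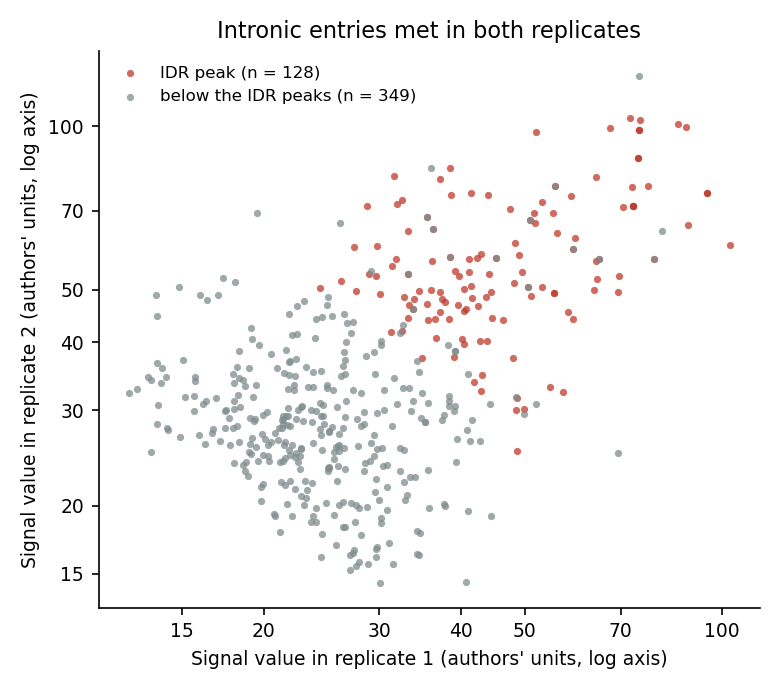
Authors' signal value of the 477 members met in both replicate lists, replicate 1 across and replicate 2 upward, both on log axes, with the 128 IDR peaks in red and the 349 others in grey. The IDR peaks lie toward the upper right, and the others form a cloud with no upward trend (rho −0.0921). The 2 groups were split by pooled rank, which limits the trend that each can show.

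The widest rank gaps belonged to members below the IDR peaks, which follows in part from the split by pooled rank. The let-526 member, in a gene for an ARID subunit of the SWI/SNF complex, ranked 1288 in replicate 1 and 18903 in replicate 2, and those of F56B3.2 (2481 and 19028) and Y71G12A.4 (2234 and 16212) differed the same way. The mig-10 member, in the gene of a lamellipodin-like guidance protein, ranked 21048 in replicate 1 and 2848 in replicate 2, and those of zyx-1, the zyxin gene (19825 and 2760), and fmi-1, the Flamingo cadherin gene (17399 and 1204), did likewise. Each of these 6 thus stood late in 1 list, of 21217 entries in replicate 1 and 19577 in replicate 2, and among the first 5000 of the other.

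The 527 members lay in 365 host genes, 3.42% of the 10663 genes with open sequence, and 2 members lay in introns of more than 1 gene. The host genes had long introns: a median of 4949 open bases, against 545 over all genes with open sequence. Of the 365, 92 held 2 members or more, and 45 held 3 or more, which together accounted for 162 members. Members can also stand close together, and 74 (14.0%) had another member's summit within 456 bases, so that they are not all separate places.

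The gene with most members was ppfr-1, with 8 in 15.4 open kilobases, 5 of them IDR peaks. The pqn-41 gene held 6, with 5 IDR peaks between ranks 169 and 1230, all in an intron of 10372 bases. The lsy-22 gene, which encodes a Groucho-related co-repressor, also held 6, of which 1 was an IDR peak, at rank 1675, and all lay in its first intron of 11392 bases. In unc-43, the calcium/calmodulin-dependent kinase II gene of neurons and muscle, 5 members lay in an intron of 8328 bases at ranks 813, 1173, 1785, 2795 and 3732. The 5 members of sea-2, a gene that takes part in counting X chromosomes against autosomes, were all below the IDR peaks. All 4 members of Y111B2A.12 were IDR peaks, as were 3 of the 4 of pkc-1, a protein kinase C gene that acts in neurons, and 1 of the 4 of gei-4. Several of these pairs, such as the ppfr-1 entries of rank 264 and 1003, overlap each other by over 200 bases.

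**Figure D3:**
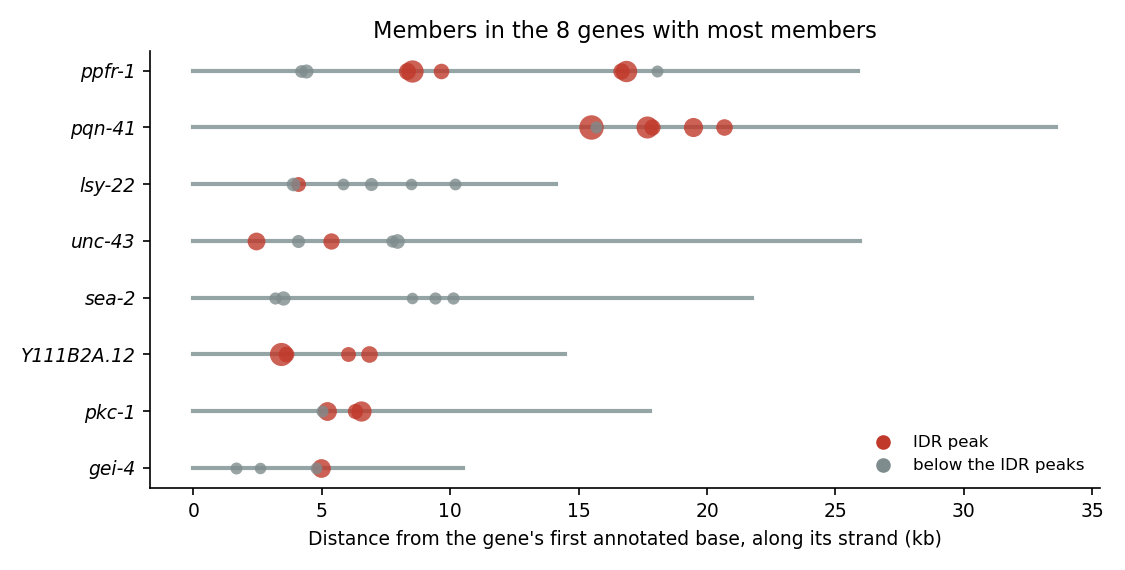
Members in the 8 genes with most members, as points at their distance in kilobases from the gene's first annotated base along its strand, with the gene as a line, point area growing with signal, IDR peaks in red and others in grey. In pqn-41 all 6 members lie between 15489 and 20672 bases from the start, and in ppfr-1 the 8 members fall in several groups of close neighbours.

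Host genes were then grouped by 14 lists of genes by role. Genes of axon guidance and adhesion were hosts most often: 17 of 61 with open sequence (27.9%), beside 3.42% of all such genes. Their introns are long, so the share of sequence is the closer comparison: they held 30 members, 5.69% of all members, in 2.60% of open sequence. This share does not remove intron length, since introns of 2000 bases or more held 69.8% of members in 34.9% of open sequence. The part of intron length in the list shares was not tested. The strongest lay in ptp-3, a receptor tyrosine phosphatase of the LAR family, at rank 567 with 51.88 in replicate 1 and 66.47 in replicate 2. Next came hmr-1, the classical cadherin gene (rank 1136, 46.32 and 44.02), and unc-53, a navigator-family gene needed for the outgrowth of neurites and other cells (rank 1404, 39.53 and 46.93). These 3 were IDR peaks, and the 27 other members of the group were not, among them zig-8 (rank 1705) and clr-1 (rank 1854).

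Genes known from the AFD, ALA or BDU neurons, the cells in which CEH-14 is known to act, were hosts in 8 of 30 (26.7%) and held 13 members, 2.47% of members in 0.662% of open sequence. The strongest lay in zag-1, a ZEB-type homeodomain and zinc-finger gene (rank 946, 28.78 in replicate 1 and 71.40 in replicate 2). In cmk-1, the calcium/calmodulin-dependent kinase I gene that acts in AFD, a first-intron member ranked 1191, with 44.17 and 53.53. The others of the list were unc-53, ida-1, ast-1, lin-11, pde-1 and zig-1, of which unc-53 alone held an IDR peak. The list shares unc-53 and zig-1 with the guidance list, zag-1 and lin-11 with the homeobox list, ida-1 with the synaptic list, ast-1 with the list of GATA and related factors and pde-1 with the G protein list. Of its hosts cmk-1 alone was in no other list, so these counts overlap.

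Panneuronal and synaptic genes were hosts in 8 of 35 (22.9%), with 16 members, 3.04% of members in 1.02% of open sequence. The pkc-1 member of rank 419 had 73.09 in replicate 1 and 71.32 in replicate 2, and the unc-43 member of rank 813 had 31.88 and 71.94. Others lay in unc-119 (rank 1241), a neuronal lipid-binding protein gene, in ida-1 (rank 2157), a dense-core vesicle gene, and in syd-1 (rank 2221), a synapse assembly gene. Of the 16 members, 6 were IDR peaks, beside 132 of all 527 members, and 8 held a GA repeat, beside 119 of all 527. Neither difference was tested.

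Among transcription factor genes, 6 of 59 homeobox genes with open sequence (10.2%) held 7 members, 1.33% of members in 0.771% of open sequence. They were the posterior Hox gene nob-1 (rank 659, 69.57 in replicate 1 and 53.05 in replicate 2), zfh-2 (rank 795), zag-1, the LIM homeobox gene lim-7 (rank 1496, 29.70 and 52.97), vab-7, the even-skipped homolog (rank 4217), and the LIM homeobox gene lin-11 (rank 4573). Of the list of GATA, T-box, forkhead, Sox and ETS factors, 5 of 32 (15.6%) held 12 members, 2.28% of members in 0.639% of open sequence. These were the forkhead gene fkh-7 (rank 652), the FOXO gene daf-16 (rank 1272), the GATA factor gene egl-18 (rank 1543), egl-27 (rank 2679) and the ETS gene ast-1 (rank 4548). Of the bHLH genes 1 of 19 was a host, hlh-30, the TFEB homolog, which was also the single host among 14 intestinal genes. The bHLH list had 0.380% of members in 0.233% of open sequence.

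Of the Wnt and planar polarity genes, 3 of 28 (10.7%) held 8 members, 1.52% of members in 0.446% of open sequence. They were cam-1, the Ror receptor tyrosine kinase gene (rank 580, 47.48 in replicate 1 and 70.36 in replicate 2), fmi-1 (rank 2351) and the Nemo-like kinase gene lit-1 (rank 3315). Of the G protein signalling genes, 6 of 42 (14.3%) held 7 members, 1.33% of members in 0.912% of open sequence, the strongest in the phosphodiesterase genes pde-6 (rank 984) and pde-3 (rank 1351). Ion channel genes were hosts in 4 of 83 (4.82%), with 6 members, 1.14% of members in 1.80% of open sequence. The strongest of these lay in unc-79, an accessory subunit gene of the NALCN sodium leak channel (rank 387, 73.18 and 71.33), and in trpa-1, a TRP channel gene (rank 611, 69.40 and 49.53).

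Genes of other tissues held few members, though not all of these lists were below their share of open sequence. Sarcomere genes of body muscle were hosts in 4 of 43 (9.30%), but their 5 members, led by lev-11, the tropomyosin gene (rank 1782), and ttn-1, a titin gene (rank 2670), were 0.949% of members in 1.26% of open sequence. Epidermal and cuticle genes were hosts in 1 of 36, bli-4, a proprotein convertase gene (rank 4049), general chromatin genes in 1 of 42, let-526, with 3 members, and pharyngeal genes in 0 of 19. The epidermal list had 0.190% of members in 0.530% of open sequence, and the pharyngeal list no members in 0.197%. The chromatin list was near its share of sequence, at 0.569% in 0.536%, and the intestinal list was above it, at 0.380% in 0.251%. None of the 5 muscle, 1 epidermal, 2 intestinal and 3 chromatin members was an IDR peak, beside 132 of all 527 members. With so few members, this does not show that these lists differ from all members. The lists differ in intron length, and no difference between them was tested.

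Sequence was not used to choose the members, and was compared between each centre and its own flanks, a pair of stretches of the same total length centred 300 bases to either side of the summit. Each possible hexamer, both strands read as 1, was tested for presence with McNemar's exact test, two-sided, with Benjamini-Hochberg adjustment over all of them. The test takes members as separate, which neighbouring ones are not. At an adjusted p under 0.05, 65 hexamers (3.12%) were more frequent at the centre and 35 (1.68%) less frequent. These counts moved with the list: members chosen without replicate 2 gave 27 and 8, and members chosen without replicate 1 gave 53 and 19. The 288 members over 2000 bases from starts gave 4 and 4, with TAATTA (exact test, adjusted p = 0.0160) and GAGAGA (exact test, adjusted p = 0.00291) among the 4 raised.

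The LIM homeodomain core TAATTA was in 60 centres (11.4%, interval 8.95 to 14.4) and in the flanks of 21 members (3.98%, interval 2.62 to 6.01), a ratio of 2.86. It was in the centre alone in 55 members and in the flanks alone in 16 (McNemar's exact test, adjusted p = 3.55e-04). Of all 133792 windows of the same length along the open sequence, 5.05% held it. TAATTA was the single raised hexamer made of A and T alone, a class with 36 hexamers of which 7 were lowered. The nearest variant of the core, TAATTG or its reverse complement CAATTA, was in 53 centres and 33 flanks, a ratio of 1.61, and did not pass (exact test, adjusted p = 0.229), and 7.50% of open windows held it. AATTAA, which overlaps the core by 5 bases, was in 82 centres and 73 flanks, and did not pass either (exact test, adjusted p = 0.830).

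The core was found in both bands of signal. It was in 13 of the 132 IDR centres (9.85%) and 2 of their flanks (1.52%), a ratio of 6.50 that did not pass (exact test, adjusted p = 0.151), and in 47 of the 395 other centres (11.9%) and 19 of their flanks (4.81%), a ratio of 2.47 that did (exact test, adjusted p = 0.0336). The share of centres with the core was thus near that of all members in either band, and the difference between the bands was not tested. Along the members, bins of 50 bases held the core in 5.69% of members at 50 bases before the summit, 5.12% at the summit and 7.40% at 50 bases after it, and in 0.949% to 2.09% at 250 bases or farther.

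**Figure D4:**
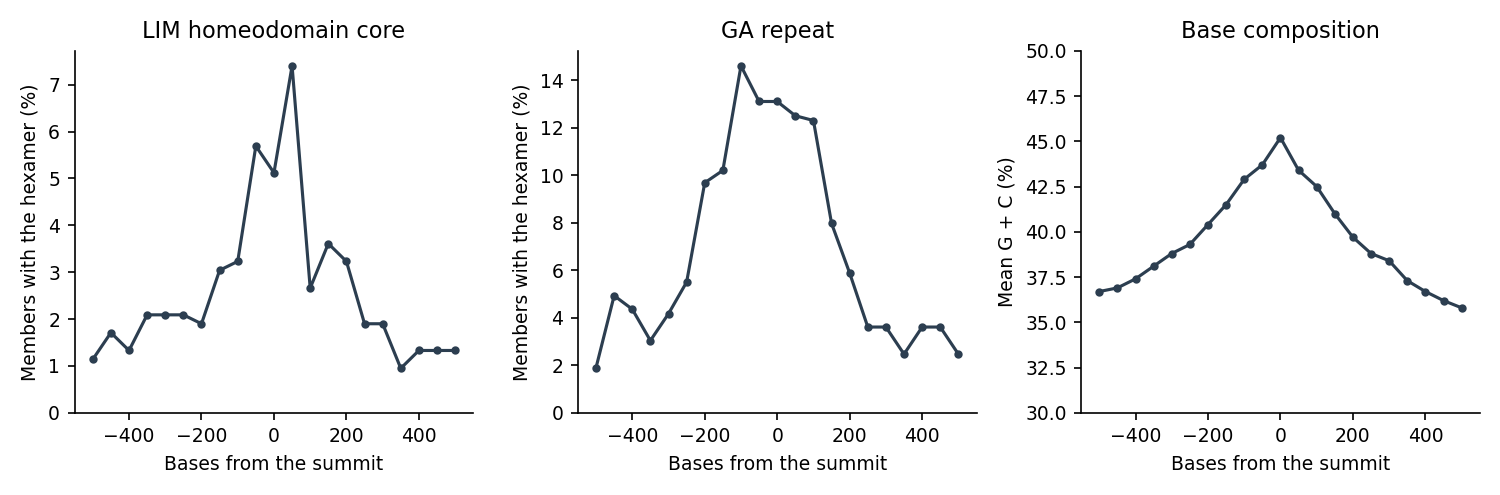
Share in percent of the 527 members whose bin of 50 bases holds the LIM core (left) or the GA repeat (middle), and mean G + C content in percent (right, axis not starting at 0), by distance of the bin from the summit in bases on the plus strand. The LIM core is most frequent within 50 bases of the summit (5.12% to 7.40%), and the GA repeat forms a wider rise that reaches 14.6%.

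The 60 members with a LIM core at the centre lay in 57 host genes. Their median rank was 2979, against 3039 in the other members, a difference that was not tested. Of the 60, 55 (91.7%) were met in both replicates, beside 90.5% of all members, and 21 (35.0%) lay in a first intron, beside 37.2%. More than 1 copy was held by 13. There were 79 copies in all, 36 of them within 25 bases of the summit. By list, beside 11.4% of all members, 8 of the 30 members in guidance and adhesion genes held the core, in ptp-3, hmr-1, unc-53, clr-1, unc-52, vab-2 and fmi-1, the last with 2 such members. Of the 8 members in Wnt and planar polarity genes 4 held it, 2 of them in cam-1 and the other two in fmi-1, which is in both lists. In the homeobox list the core stood in 2 of 7, the lim-7 and vab-7 members, and in the list of AFD, ALA and BDU genes in 2 of 13, those of cmk-1 and unc-53. It stood in 1 of the 16 members in panneuronal and synaptic genes, 1 of the 12 in GATA, T-box, forkhead, Sox and ETS factor genes, 1 of the 6 in ion channel genes, 1 of the 5 in sarcomere genes and 0 of the 7 in G protein signalling genes. No difference between lists was tested.

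Among copies at member centres, the bases beside the core differed from those in open sequence. CTAATTAG made up 15 of 79 copies (19.0%), against 3.16% of the 10221 copies in open sequence, and stood in 10 members. Of the 15, 5 stood in the C14B4.2 member of rank 1203, in the tandem repeat printed above, and 2 in the C14B4.2 member of rank 2562 in the same intron, so that the copies are not separate. TTAATTAA made up 25.3% of copies, against 16.5% in open sequence, and ATAATTAA 16.5%, against 24.7%. These octamers were compared after the values were seen, and no test was made.

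The GA repeat was the hexamer with the lowest p. GAGAGA was in 119 centres (22.6%) and 40 flanks (7.59%), a ratio of 2.98 (McNemar's exact test, adjusted p = 1.38e-08), and in 4.14% of open windows. It was 1 of 19 raised hexamers made of A and G alone on 1 strand, a class with 63 hexamers. Another 24 held CG, a class with 604 hexamers, so that their share was near the 3.12% raised over all hexamers. Among these 24 were CGCGCA, in 41 centres and 7 flanks (exact test, adjusted p = 5.38e-05), and CGTCTC, in 64 centres and 21 flanks (exact test, adjusted p = 1.24e-04). Overlapping hexamers of 1 run are counted separately. The GA repeat spread more widely than the LIM core, with 14.6% of members holding it at 100 bases before the summit, 13.1% at the summit and 12.3% at 100 bases after it.

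The LIM core and the GA repeat stood together in 5 members, 8.33% of the 60 with a LIM core. The GA repeat was in 22.6% of all members, and this difference was not tested. Either hexamer was in 174 members (33.0%). Of the 119 members with a GA repeat, 61 (51.3%) lay in a first intron, beside 21 of the 60 (35.0%) with a LIM core, and 42 (35.3%) were IDR peaks, beside 13 (21.7%). Their centres had 47.3 ± 7.25% G + C (SD, n = 119), and those with a LIM core 35.8 ± 8.12% (SD, n = 60), which the hexamers' own bases in part set. The hexamers looked at for GATA, E-box and forkhead factors were not called. The GATA-type TGATAA was in 18 centres and 32 flanks (exact test, adjusted p = 0.316) and AGATAA in 22 and 32 (exact test, adjusted p = 0.605). The E-box CACCTG was in 25 and 17 (exact test, adjusted p = 0.642) and the forkhead-type TAAACA in 27 and 35 (exact test, adjusted p = 0.747). A match to a hexamer is a match of letters and does not show a bound site. For TAATTA it also does not tell CEH-14 from other proteins with a homeodomain, so LIM core is a label only.

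Member centres were richer in G + C than their flanks, with 44.5 ± 9.76% at the centre against 38.6 ± 8.08% in the flanks (SD, n = 527 members), a mean difference of 5.89 percentage points with an SD of 11.6. The centre was higher in 366 of the 527 and equal in 16. The open windows averaged 32.4%. The lowered hexamers were made mainly of A and T, such as TAAAAA and AAAATT, whereas TAATTA, also of A and T alone, was raised in the same centres. Of the 527 centres, 47 (8.92%) held at least 1 exon base, and 69 (13.1%) were soft-masked over more than 50% of their length in the reference. The part of base composition and of repeats in the hexamer results was not tested.

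The same comparison was made in other classes of entries. The LIM core was in 8.64% of the 741 intergenic centres far from starts, against 5.80% in their flanks, a ratio of 1.49 that did not pass (exact test, adjusted p = 0.122). It was in 8.12% of the 2204 centres within 1000 bases of a protein-coding start, against 5.63% in their flanks, a ratio of 1.44 (exact test, adjusted p = 0.00510). Among the 817 IDR peaks near starts the ratio was 0.981 (exact test, adjusted p = 1.00), and among the 1387 entries there below the IDR peaks it was 1.78 (exact test, adjusted p = 8.33e-04). Of all hexamers, 12.5% were raised and 7.07% lowered in the intergenic entries, and 23.9% raised and 16.8% lowered near starts. The GA repeat ran in another order, with ratios of 2.98 in the intronic members, 3.92 in intergenic entries and 2.47 near starts. The intronic members thus had the highest ratio of the LIM core among these 3 classes, 2.86, and the interval of their centre share overlapped those of the other classes. Their flank share, 3.98%, was the lowest of the 3, which raises the ratio. Among IDR peaks the core was in 10.5% of the 209 intergenic centres, beside 9.85% of the intronic ones. The intergenic IDR flanks held it in 6.22%, a ratio of 1.69 that did not pass (exact test, adjusted p = 0.454). Whether the ratio differs between classes was not tested.

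**Figure D5:**
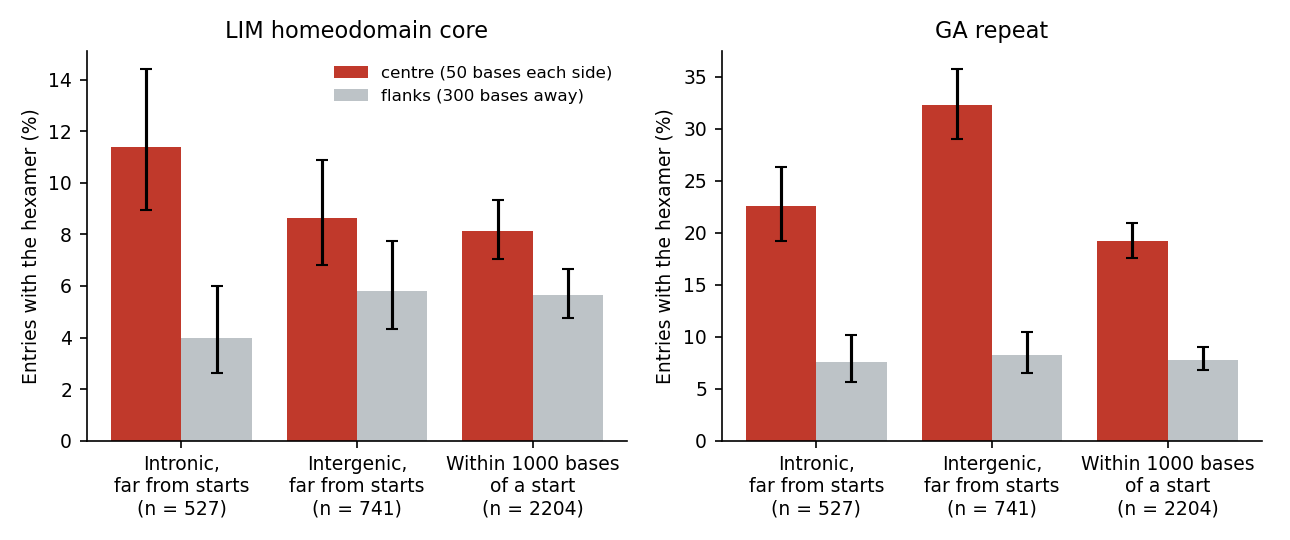
Share in percent of entries with the LIM core (left) or the GA repeat (right) in the centre (red) and the flanks (grey), for intronic members (n = 527), intergenic entries far from starts (n = 741) and entries within 1000 bases of a protein-coding start (n = 2204), with 95% Wilson intervals. For the LIM core the intronic centres stand at 11.4% over flanks at 3.98%, and for the GA repeat the intergenic centres stand highest, at 32.3%.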

How the data were processed

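Narrow peak lists from 2 biological replicates were used, in ce11: the IDR peaks, a relaxed list made from both replicates and 1 made from each. Per the sample records deposited with them, each relaxed list was made from alignments together with 1 additional file of unstated kind. Which aligner and peak caller were used, and at which IDR threshold, is not given in the sources used here. Each entry's signal is the authors' deposited value, on a separate scale per list, and it ranked and described entries inside a list. The deposited −log10 q-values reach a cap and were not used. Read numbers are not in the lists, so the depth is unknown and the number of entries sets the precision. Wilson intervals at 95% cover counting error only. The ce10 lists were not used.

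Coordinates are 1-based. Gene models were those of Ensembl release 115 for WBcel235, the same sequence as ce11, and bases came from the RefSeq copy of that assembly. A member met a replicate entry at a reciprocal overlap of 50% or more. Hexamers were tested with scipy 1.17.1 under Python 3.11.15, and the procedure was tested on simulated data. Of 786 list symbols, 13 matched no gene of the annotation. Genes are named by a rule: hosts of the 25 strongest members, the 8 genes with most members, up to 5 hosts per list, the widest rank gaps, the edges of the rule and the strongest members with a printed hexamer. Members named beyond it, such as further hosts of a LIM core, were chosen after their values were seen. The members, lists and hexamers were chosen with earlier results of these data known. Alternatives covered the rank limit, start distance, replicate list, overlap rule, centre width, flank distance, exon-free flanks and 1 member per 1000 bases.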

Additional observations from a re-analysis of the deposited data

How the results depend on the processing

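TAATTA was more frequent at the member centres than in their flanks under each of the 12 alternatives tried, and GAGAGA likewise, with GAGAGA past the threshold in each. TAATTA lost the threshold in 1, the rank limit of the 1681 IDR peaks (ratio 6.50, McNemar's exact test, adjusted p = 0.151), where 132 members were left, and its adjusted p ran between 7.74e-07 and 0.151. At that limit 97.0% of members were met in both replicates, 42.4% lay in first introns, 19 listed genes were hosts in place of 55, 11 hexamers were raised and 14 lowered, and the G + C difference was 9.76 points. With the limit at 2500, 204 members were left, of which 97.5% were met in both and 41.7% lay in first introns, with 28 listed hosts, 22 raised and 22 lowered hexamers and a difference of 8.56 points. Over 2000 bases from starts there were 288 members, 30.9% of them in first introns, 4 raised and 4 lowered hexamers and a difference of 5.12 points. Over 1000 bases from starts of every annotated gene, 43 hexamers were raised and 20 lowered. Centres of 100 bases on each side gave 159 raised and 101 lowered, and flanks centred 500 bases away 167 and 92, with a difference of 8.27 points. The 373 members whose flanks held no exon base had a difference of 7.42 points.

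With the members taken from 1 replicate list and without the other, 71.8% to 73.6% were met in the other, 27 to 53 hexamers were raised, 8 to 19 were lowered, TAATTA had ratios of 2.55 to 2.77 and the G + C difference was 4.12 to 4.85 points. The lowest of each pair of counts was without replicate 2. The share met in both replicates was 93.7% at any overlap, 69.8% at 80% overlap, 51.0% for summits within 50 bases and 48.0% for rank 1 to 5000 in each list. Near starts TAATTA had a ratio of 0.981 at the IDR limit (exact test, adjusted p = 1.00) and 1.32 at 2500 (exact test, adjusted p = 0.201). The alternatives for entries near starts, for intergenic entries and for the host lists, and flanks with as many hexamer starts as the centre (TAATTA 2.50, exact test, adjusted p = 0.00191), were chosen after seeing the data. The cause of these shifts was not tested. No paired analysis was possible because the replicates form 1 group. With no control library and no read numbers, enrichment over input and depth could not be weighed.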
